A study of Mus musculus with 12 samples.

Results

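Expression of 9 complement genes was followed in the spleens of 12 mice. They were the 3 chains of the recognition molecule C1q (C1qa, C1qb and C1qc), the central component C3, the classical component C4b, factor B (Cfb) and properdin (Cfp) of the alternative pathway, and the receptors of the released fragments C3a and C5a (C3ar1 and C5ar1). They were listed by gene symbol and made up 9 of the 18221 genes listed. Of these, 8 passed the filter on low values and were tested, and C3ar1 did not.

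Male ICR mice, an outbred stock, entered the study at 3 weeks of age and their spleens were collected at 8 weeks. Con-sa mice received saline and no busulfan, and their samples carry the agent label Blank. B-sa mice received busulfan, an alkylating drug that damages blood-forming cells, as a single injection of 40 mg/kg, followed by saline. B+Con-FMT and B+A10-FMT mice received the same injection and then daily oral transfer of small intestinal contents (fecal microbiota transplantation, FMT) for 2 weeks, from control donors dosed with water in the former and from donors given alginate oligosaccharide at 10 mg/kg for 3 weeks in the latter. The contents of the donors of each kind were pooled, so that each transfer group stands for 1 pool. There were 3 mice in each group, and p-values measure the spread between these mice.

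Complement is a cascade of blood and tissue proteins that tags microbes, immune complexes and dying cells. C1q binds antibody or altered surfaces and starts the classical pathway through C4 and C2. The alternative pathway builds its convertase from C3b and factor B, and properdin stabilizes it. Both lead to cleavage of C3 and release of the attracting fragments C3a and C5a. In the spleen, C1q is made largely by macrophages, whereas most circulating C3, C4 and factor B comes from the liver.

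The whole tissue was measured, so fewer cells of a type and less RNA per cell cannot be told apart. Depth, estimated from the steps between the lowest values of each mouse, was 14800000 to 15700000 reads. Read counts were not used, so single values carry no counting interval. Pearson's r between mice of a group over the genes tested was 0.9852 to 0.9945. The spleen identity and macrophage markers used as a check of the tissue were present in all 12 mice, and none of the 6 and 12 genes on these lists was at 0 throughout.

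The C1q chains lie side by side on the reverse strand of chromosome 4 (GRCm38.p6), in 18719 bases. C1qb (Entrez 12260) is at chr4:136880126-136886200, C1qc (12262) at chr4:136889801-136892936 and C1qa (12259) at chr4:136895916-136898844. Cfb (14962) at chr17:34856374-34862514 and C4b (12268) at chr17:34728139-34743902 lie in the same stretch of chromosome 17, and the start of Cfb is 87 bases from the annotated end of C2, the classical counterpart of factor B. C3 (12266) is at chr17:57203967-57228136, Cfp (18636) at chrX:20925454-20931555, C3ar1 (12267) at chr6:122847140-122856157 and C5ar1 (12273) at chr7:16246743-16259540. All 9 are on the reverse strand.

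The promoters of 2 C1q chains are shown because these genes varied together from mouse to mouse, with that of C3 as a component that did not vary with them. Each run is the 250 bases before the RefSeq start (GRCm38.p6, reverse strand, written 5′ to 3′), and capitals mark GAGGAA or its reverse complement TTCCTC, the core letters bound by ETS factors such as the macrophage regulator PU.1. The C1qc window overlaps the 5′ end of the annotated gene, since the RefSeq start it precedes is not the outermost one. The C1qb window is chr4:136886201-136886450, the C1qc window is chr4:136892915-136893164 and the C3 window is chr17:57228137-57228386. Promoters of Cfp, C3ar1 and C5ar1 were also matched, and those of C1qa, C4b and Cfb were not.
C1qb: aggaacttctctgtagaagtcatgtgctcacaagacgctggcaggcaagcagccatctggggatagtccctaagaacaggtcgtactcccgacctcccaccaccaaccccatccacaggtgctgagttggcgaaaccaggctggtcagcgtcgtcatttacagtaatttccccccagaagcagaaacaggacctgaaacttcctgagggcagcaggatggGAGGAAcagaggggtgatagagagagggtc
C1qc: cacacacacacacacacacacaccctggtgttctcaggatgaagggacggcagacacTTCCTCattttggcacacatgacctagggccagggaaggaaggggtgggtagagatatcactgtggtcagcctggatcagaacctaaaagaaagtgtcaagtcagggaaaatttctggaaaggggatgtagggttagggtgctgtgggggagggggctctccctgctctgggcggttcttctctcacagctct
C3: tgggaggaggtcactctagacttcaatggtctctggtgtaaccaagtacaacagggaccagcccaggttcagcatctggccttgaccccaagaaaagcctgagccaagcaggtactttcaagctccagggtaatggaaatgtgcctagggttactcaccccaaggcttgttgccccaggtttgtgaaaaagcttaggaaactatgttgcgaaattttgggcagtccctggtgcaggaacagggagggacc

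GAGGAA was present at position -30 of C1qb on the gene's strand and at position -193 of C1qc on the other strand, and was not found in the windows of C3, Cfp, C3ar1 or C5ar1. It occurs on either strand in 23.3% of all 32851 promoters of that length. TGCTGA, a Maf half-site, was found in C1qb, C3, C3ar1 and C5ar1 (16.1% of all promoters), and a loose NF-kB-like pattern (GGG, any 5 bases, then CC) in C1qb, C1qc, C3, Cfp and C3ar1 (45.8%). The interferon response pattern (GAAA, any 2 bases, then GAAA) was in none of the 6 windows and is in 3.0% of all promoters. A match describes letters and shows no binding.

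Levels are given as RPKM, reads divided by transcript length and library size, which are per length and can be set side by side between genes. Averaged over the 12 mice, C3 was the most abundant member at 252 RPKM (lowest mouse 228, highest 276), and no mouse had another member at that level. C1qa followed at 154 RPKM, C1qc at 131 RPKM and C1qb at 125 RPKM, with ranges of 118 to 177, 101 to 149 and 90.7 to 162 RPKM that overlapped one another. Cfp averaged 88.2 RPKM (78.5 to 104). Cfb at 46.3 RPKM and C4b at 43.0 RPKM followed, with ranges of 36.2 to 57.7 and 36.6 to 50.7 RPKM that overlapped almost wholly. The receptors were far lower, C5ar1 at 1.37 RPKM (0.70 to 2.15) and C3ar1 at 0.19 RPKM (0.11 to 0.34), without overlap between them.

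**Figure D1:**
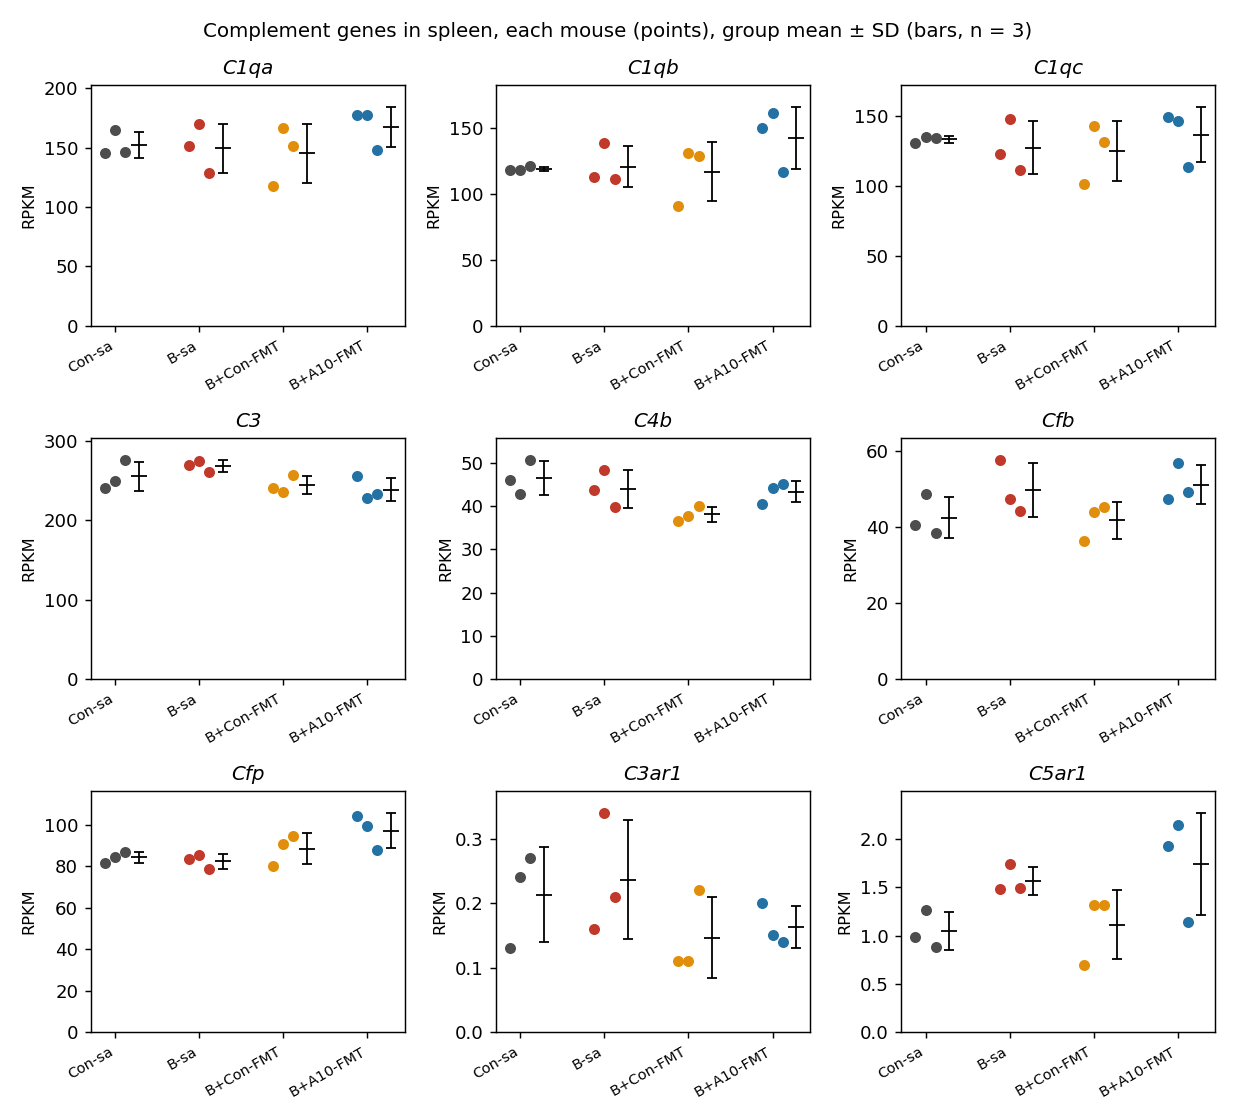
Level in RPKM (vertical axis of each panel, from 0) of the 9 complement genes in the 4 groups of mice. Points are single mice and the bars beside them the group mean ± SD (n = 3). C1qb and C1qc spread more widely in the 3 busulfan groups than in Con-sa, C1qa less clearly so, while C3 spreads most in Con-sa. C4b is lowest in B+Con-FMT, where its 3 mice lie between 36.6 and 39.95 RPKM.

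The C1q chains did not pass the test in any of the 6 comparisons. C1qa, the A chain, was at 146, 165 and 146 RPKM in Con-sa, 151, 169.5 and 128 RPKM in B-sa, 118, 167 and 151 RPKM in B+Con-FMT and 177, 177 and 148 RPKM in B+A10-FMT. C1qb, the B chain, was at 118, 118 and 121 RPKM in Con-sa, 112, 138 and 111 RPKM in B-sa, 90.7, 131 and 128 RPKM in B+Con-FMT and 149, 162 and 116 RPKM in B+A10-FMT. C1qc, the C chain, was at 131, 135 and 134 RPKM in Con-sa, 123, 148 and 111 RPKM in B-sa, 101, 143 and 131 RPKM in B+Con-FMT and 149, 147 and 114 RPKM in B+A10-FMT. The same mice were low in all 3 chains, B+Con-FMT mouse 1, B-sa mouse 3 and B+A10-FMT mouse 3 within their groups, and the groups overlapped for every chain in every comparison. The Con-sa mice were close together for C1qb and C1qc, with an SD of 1.58 RPKM for C1qb and 2.42 RPKM for C1qc, against 15.4 to 23.4 RPKM for C1qb and 18.6 to 21.5 RPKM for C1qc in the busulfan groups. For C1qa the SD was 10.9 RPKM in Con-sa and 16.8 to 24.9 RPKM in the busulfan groups. Of the other members, Cfp also spread least in Con-sa, with an SD of 2.68 RPKM. C3 went the other way, with 18.6 RPKM in Con-sa and 7.18 to 14.8 RPKM in the busulfan groups, and the rest went neither way. These spreads of 3 mice per group were looked at after the values were seen and were not tested.

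The estimated differences of the C1q chains were largest between B+A10-FMT and B+Con-FMT. On the log2(RPKM + 1) scale used throughout, C1qb was higher by 0.29 (95% interval -0.044 to 0.63, limma adjusted p = 0.231), C1qa by 0.21 (-0.073 to 0.50, adjusted p = 0.3) and C1qc by 0.13 (-0.18 to 0.44, adjusted p = 0.571). These intervals take in no difference and, at their upper ends, a log2 difference of 0.63. B+Con-FMT mouse 1 weighed on these values, since without it the difference of C1qb was 0.12 and that of C1qc was -0.014. After busulfan alone the chains lay within -0.075 and 0.012 of Con-sa, with intervals reaching from -0.39 to 0.35.

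Within a mouse the 3 chains moved together. Over the 12 mice, which share their group structure, Pearson's r between chains was 0.893 to 0.927. The ratio of C1qa to C1qb in RPKM was 1.097 to 1.397 over the mice. The ratio of C1qc to C1qb was 1.0, 0.908 and 0.978 in B+A10-FMT, 1.12, 1.09 and 1.02 in B+Con-FMT, 1.09, 1.07 and 1.004 in B-sa and 1.11, 1.15 and 1.11 in Con-sa. The B+A10-FMT mice were all below the Con-sa mice in this ratio, which was looked at after the values were seen and was not tested.

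The mean log level of the C1q chains was above that of the other components in every mouse, although C3 alone was above each chain. The mean log2(RPKM + 1) of the 3 chains exceeded that of C3, C4b, Cfb and Cfp by 0.79 ± 0.17 (SD, n = 3) in B+A10-FMT, 0.72 ± 0.20 in B+Con-FMT, 0.65 ± 0.14 in B-sa and 0.72 ± 0.039 in Con-sa. The excess was lowest in B+Con-FMT mouse 1 at 0.52 and highest in B+Con-FMT mouse 2 at 0.91, so that the widest spread was between mice of 1 group and all groups overlapped. The mean of the C1q chains ranged over 6.70 to 7.34 and that of the other components over 6.18 to 6.46. The other components were not correlated as a block, with r among them of -0.223 to 0.389 over the 12 mice, and r with the C1q chains ran from -0.09 (C1qb and C3) to 0.814 (C1qb and Cfp).

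**Figure D2:**
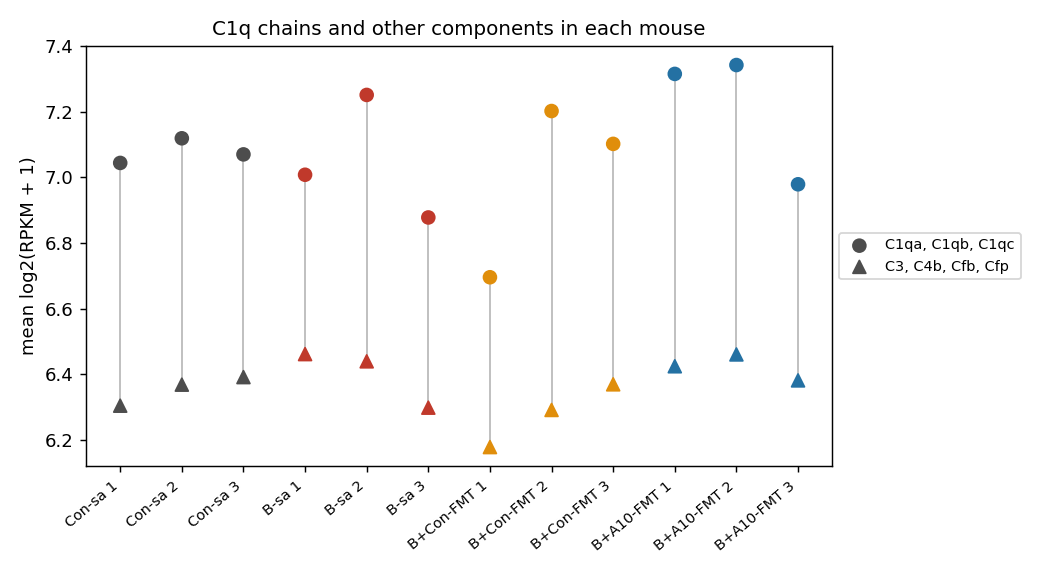
Mean log2(RPKM + 1) of the C1q chains (circles) and of C3, C4b, Cfb and Cfp (triangles) in each of the 12 mice, coloured by group, with a line joining the values of a mouse. The axis does not start at 0. The circles lie above the triangles in every mouse and span 6.70 to 7.34, against 6.18 to 6.46 for the triangles.

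C1q levels were also read against 12 macrophage markers listed for the check of the tissue. Between B+A10-FMT and B+Con-FMT, 9 of these 12 markers rose and none fell, with a median log2 difference of 0.61, beside a median of 0.21 for the C1q chains, 0.16 for C3, C4b, Cfb and Cfp, and 0.046 for all genes tested. Siglec1, the sialic acid receptor of marginal metallophilic macrophages, rose by 0.98 (adjusted p = 0.0122), Slc40a1, the iron exporter ferroportin, by 0.67 (adjusted p = 0.00399) and Spic, the regulator of red pulp macrophages, by 0.44 (adjusted p = 0.0338). The summed markers were at 783 to 797 RPKM in Con-sa, 629 to 806 RPKM in B-sa, 579 to 727 RPKM in B+Con-FMT and 912 to 1119 RPKM in B+A10-FMT, where every mouse was above all others. Whether the C1q chains and these markers differed in their change was not tested. Of 6 monocyte markers, 3 rose and none fell in the same comparison, with a median of 0.39. Their sums overlapped, at 1387 to 1522 RPKM in Con-sa, 1518 to 1733 RPKM in B-sa, 1374 to 1663 RPKM in B+Con-FMT and 1445 to 1814 RPKM in B+A10-FMT. Over the 12 mice, r of the single macrophage markers with the mean of the C1q chains ran from 0.226 (Cd163) to 0.766 (Spic). The summed monocyte list had r = 0.813 and the summed macrophage list r = 0.658. The monocyte marker Lyz2 alone was at 1250 to 1589 RPKM over the mice, so the monocyte sums and their r mainly describe this gene. The part of either cell type in the C1q values was not tested.

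C3, the component on which all pathways meet, was at 240.5, 249.8 and 276 RPKM in Con-sa, 270.4, 274.65 and 261 RPKM in B-sa, 241, 235 and 257 RPKM in B+Con-FMT and 256, 228 and 233 RPKM in B+A10-FMT. The B-sa mice were above those of both transfer groups without overlap and overlapped Con-sa. The difference was -0.17 in B+A10-FMT against B-sa (SE 0.063, adjusted p = 0.125) and -0.13 in B+Con-FMT against B-sa (SE 0.063, adjusted p = 0.278), and neither passed the test. Both comparisons share the B-sa mice. The bound farthest from 0 among the 95% intervals of C3 over the 6 comparisons was -0.30.

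The C3 values are the sum of 2 listed transcripts, NM_009778.3 and the predicted XM_011246258.1, between which the reads were divided by estimation. The first took 49.7%, 50.1% and 50% of C3 in B+A10-FMT, 38.7%, 46.6% and 41.8% in B+Con-FMT, 43.5%, 43.8% and 48.4% in B-sa and 57.6%, 50.8% and 47.6% in Con-sa. The B+Con-FMT shares were below all Con-sa and B+A10-FMT shares. With transcripts of the NM prefix alone, C3 was lower in B+Con-FMT than in Con-sa by a log2 difference of -0.35 (adjusted p = 0.0212), whereas the sum differed by -0.061 (adjusted p = 0.56), and the difference of B+A10-FMT from B+Con-FMT changed sign from -0.035 to 0.20 (adjusted p = 0.0958). Against B-sa, the B+A10-FMT difference shrank from -0.17 to -0.026 (adjusted p = 0.862) and the groups overlapped, at 118 to 126 and 114 to 127 RPKM of that transcript, while the B+Con-FMT difference was -0.23 (adjusted p = 0.176).

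**Figure D3:**
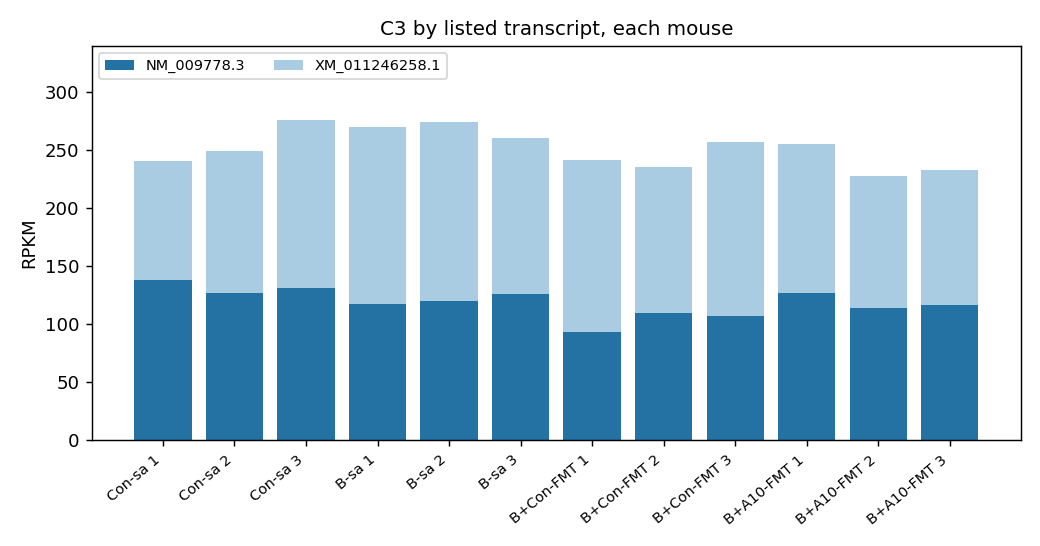
C3 level in RPKM (vertical axis, from 0) in each mouse, split into the 2 listed transcripts NM_009778.3 (dark) and XM_011246258.1 (light). The sums lie between 228 and 276 RPKM, while the dark part runs from 93.4 RPKM in B+Con-FMT mouse 1 to 139 RPKM in Con-sa mouse 1.

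C4b, which is cleaved by the C1 complex and forms part of the classical C3 convertase, gave the single call among the members. It was at 46.1, 42.8 and 50.7 RPKM in Con-sa, 43.8, 48.5 and 39.8 RPKM in B-sa, 36.6, 37.7 and 39.95 RPKM in B+Con-FMT and 40.6, 44.2 and 45.2 RPKM in B+A10-FMT. The B+Con-FMT mice were below all Con-sa and all B+A10-FMT mice and overlapped B-sa at 1 mouse. C4b fell by 0.28 on the log2 scale in B+Con-FMT against Con-sa (SE 0.078, 95% interval -0.45 to -0.11, limma adjusted p = 0.0442), and the exact two-sided permutation test of 3 mice against 3 gave p = 0.1, the smallest it can give.

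The C4b call was narrow. Leaving out any 1 mouse of either group, or B+A10-FMT mouse 2 or 3, which share the estimate of the spread, raised the adjusted p to between 0.0503 and 0.124, with differences of -0.34 to -0.22. The call was also lost in 4 of the 8 alternative fits that kept all mice (adjusted p 0.066 to 0.0826). In B+A10-FMT against B+Con-FMT, C4b was higher by 0.18 (SE 0.078, adjusted p = 0.147), which did not pass. Its near-identical neighbour C4a was listed at 0.08 to 0.35 RPKM, and reads of the pair could be divided either way, so the C4b level is uncertain to that extent.

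Factor B, the serine protease subunit of the alternative convertase, was at 40.5, 48.6 and 38.4 RPKM in Con-sa, 57.7, 47.3 and 44.3 RPKM in B-sa, 36.2, 43.9 and 45.2 RPKM in B+Con-FMT and 47.5, 57.0 and 49.2 RPKM in B+A10-FMT. All B+A10-FMT mice were above all B+Con-FMT mice, and Con-sa overlapped every other group. The difference between the transfer groups was 0.29 (SE 0.12, adjusted p = 0.135) and that of B+A10-FMT from Con-sa 0.27 (SE 0.12, adjusted p = 0.362), and neither passed.

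Properdin, the positive regulator of that convertase, was at 81.7, 84.5 and 87.0 RPKM in Con-sa, 83.5, 85.2 and 78.5 RPKM in B-sa, 80.3, 90.6 and 94.7 RPKM in B+Con-FMT and 104, 99.5 and 88.0 RPKM in B+A10-FMT. The B+A10-FMT mice were above all Con-sa and B-sa mice, and overlapped B+Con-FMT. Cfp was higher in B+A10-FMT by 0.23 against B-sa (SE 0.073, adjusted p = 0.0747) and by 0.20 against Con-sa (SE 0.073, adjusted p = 0.272), so neither difference passed. With each mouse left out the first ran from 0.18 without B+A10-FMT mouse 1 (adjusted p = 0.204) to 0.30 without B+A10-FMT mouse 3 (adjusted p = 0.0466). Its adjusted p against B-sa was the lowest among the members after that of C4b.

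The receptors sat near the lower end of what could be measured. C5ar1, the receptor that draws neutrophils and monocytes to C5a, was at 0.99, 1.27 and 0.88 RPKM in Con-sa, 1.48, 1.74 and 1.49 RPKM in B-sa, 0.70, 1.32 and 1.32 RPKM in B+Con-FMT and 1.93, 2.15 and 1.14 RPKM in B+A10-FMT. The B-sa mice were above all Con-sa and all B+Con-FMT mice, and B+A10-FMT mouse 3 lay within the ranges of those groups. The difference was 0.33 in B-sa against Con-sa (SE 0.16, adjusted p = 0.167) and 0.37 in B+A10-FMT against B+Con-FMT (SE 0.16, adjusted p = 0.139). Neither passed. With each mouse left out the second ran from 0.22 without B+Con-FMT mouse 1 (adjusted p = 0.417) to 0.54 without B+A10-FMT mouse 3 (adjusted p = 0.0486), and with a pseudocount of 0.1 the differences were 0.55 and 0.60 (adjusted p = 0.172 and 0.151). About 25 to 78 reads per mouse lay behind these values by estimate. In B-sa mouse 1 and B+A10-FMT mouse 3, 1.09 and 1.11 RPKM of the sum were assigned to a second listed transcript, NM_001173550.1, which was at 0 in the other mice.

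Neutrophil markers were set beside C5ar1. The 8 markers summed to 2040 to 2117 RPKM in Con-sa, 3634 to 5950 RPKM in B-sa, 2356 to 3394 RPKM in B+Con-FMT and 2019 to 5046 RPKM in B+A10-FMT, where mouse 3 was the lowest. Of the 8, 2 rose in B-sa against Con-sa and none in the other comparisons. Over the 12 mice C5ar1 had r = 0.818 with S100a8 and r = 0.821 with Ltf, beside r = 0.821 with C1qb, 0.774 with Cfb and 0.737 with C1qa. In B+A10-FMT against B-sa the median of the neutrophil markers was -0.47, while C5ar1 differed by 0.074. The part of neutrophils in the C5ar1 values was not tested. C3ar1, the C3a receptor, was at 0.13, 0.24 and 0.27 RPKM in Con-sa, 0.16, 0.34 and 0.21 RPKM in B-sa, 0.11, 0.11 and 0.22 RPKM in B+Con-FMT and 0.20, 0.15 and 0.14 RPKM in B+A10-FMT. All groups overlapped. About 7 to 22 reads per mouse stood behind these values, and the fit without the filter gave differences of -0.11 to 0.027 over the 6 comparisons (adjusted p 0.466 to 0.893).

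The tested members are set against all genes tested, comparison by comparison. In B-sa against Con-sa, 0 of 8 members were called by limma beside 14.5% of all genes tested (4.73% higher and 9.78% lower), and 1, C5ar1, did not overlap between groups beside 34% of genes. In B+Con-FMT against B-sa, 0 of 8 were called (0.844% of genes) and C3 and C5ar1 did not overlap (19.4%). For B+A10-FMT against B-sa, 0 of 8 were called (5.27%) and C3 and Cfp did not overlap (27%). Between the transfer groups, B+A10-FMT against B+Con-FMT, 0 of 8 were called (10.4%, of which 7.58% higher and 2.78% lower) and C4b and Cfb did not overlap (35%). For B+A10-FMT against Con-sa, 0 of 8 were called (0.41%) and Cfp did not overlap (21.6%). In B+Con-FMT against Con-sa, 1 of 8, C4b, was called (8.87%, of which 6.57% lower and 2.3% higher) and did not overlap (34.1%). These shares rest on few mice: with each mouse left out, the number of genes called ran over 513 to 2100, 19 to 466, 106 to 832, 218 to 1558, 1 to 74 and 329 to 1305 in the order given.

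At an unadjusted p under 0.05, the members counted 0, 1, 2, 3, 3 and 1 in the same order, against 31.3%, 18.4%, 24.5%, 28.9%, 13.5% and 27.4% of all genes. The median log2 difference of the 8 members was -0.01, -0.096, 0.087, 0.20, 0.17 and -0.054, beside -0.044, -0.004, 0.046, 0.046, 0.005 and -0.041 for all genes. In B+A10-FMT against B+Con-FMT, 7 of 8 members had estimates above 0, C3 being the exception. The comparisons share their mice, so these counts are not independent of each other.

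**Figure D4:**
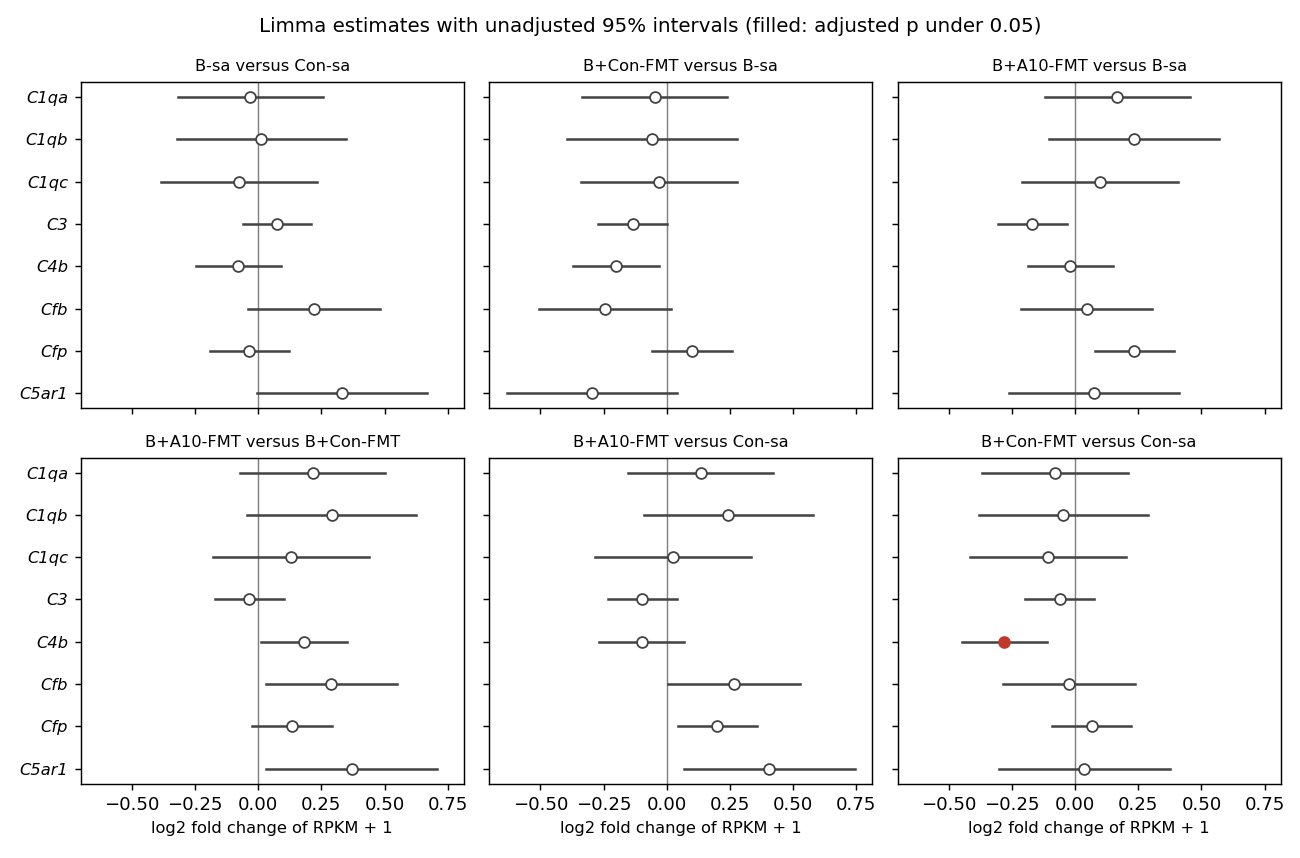
Log2 fold changes of RPKM + 1 (horizontal axes) for the 8 tested members in the 6 comparisons, with unadjusted 95% intervals as lines. The filled point marks the call, C4b at -0.28 in B+Con-FMT against Con-sa, and most other intervals cross 0.

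Around the members, 48 further genes of the complement system were listed by role, of which 26 were tested. Among these, 1 fell in B-sa against Con-sa, 0 changed in B+Con-FMT against B-sa, 1 rose in B+A10-FMT against B-sa, 5 rose in B+A10-FMT against B+Con-FMT, 0 changed in B+A10-FMT against Con-sa and 5 fell in B+Con-FMT against Con-sa. Beside these stand 9.78% of all genes lower in the first, 4% higher in the third, 7.58% higher in the fourth and 6.57% lower in the last. The median difference of the 26 was 0.12 in B+A10-FMT against B+Con-FMT and -0.20 in B+Con-FMT against Con-sa.

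Cd55, decay-accelerating factor, which dismantles C3 convertases on the cell's own surface, showed the clearest change. It was at 93.1, 98.3 and 96.2 RPKM in Con-sa, 68.3, 61.3 and 60.4 RPKM in B-sa, 66.8, 61.7 and 63.6 RPKM in B+Con-FMT and 79.7, 77.7 and 82.5 RPKM in B+A10-FMT. Con-sa was highest and B+A10-FMT lay between it and the other busulfan groups, with no overlap at either step. Cd55 fell by 0.59 in B-sa against Con-sa (SE 0.056, adjusted p = 0.000442) and rose by 0.33 in B+A10-FMT against B-sa (adjusted p = 0.00949) and by 0.32 in B+A10-FMT against B+Con-FMT (adjusted p = 0.00785). With NM transcripts alone these rises were 0.66 (adjusted p = 0.0304) and 0.49 (adjusted p = 0.0467). The remaining difference of B+A10-FMT from Con-sa, -0.26, did not pass (adjusted p = 0.0725). In B-sa against Con-sa, 4 of the 6 B cell markers, a list that includes the complement receptor Cr2, fell as well, with a median of -0.32. Where Cd55 rose, none of them rose: 0 of 6 were called in B+A10-FMT against B-sa (median 0.11), and 1 fell in B+A10-FMT against B+Con-FMT (median -0.018). Their part in the Cd55 values was not tested.

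Cd46, a membrane cofactor that helps inactivate C3b, was low throughout. It was at 1.70, 1.63 and 1.66 RPKM in Con-sa, 1.78, 1.88 and 1.38 RPKM in B-sa, 0.97, 0.83 and 0.96 RPKM in B+Con-FMT and 1.15, 1.73 and 2.2 RPKM in B+A10-FMT. The B+Con-FMT mice were below all others. Cd46 fell by 0.47 in B+Con-FMT against Con-sa (adjusted p = 0.0423) and rose by 0.47 in B+A10-FMT against B+Con-FMT (adjusted p = 0.0392). Each call was lost in 7 of the 12 fits that left out a mouse, with adjusted p up to 0.116 and 0.128. Of 6 alternative fits that kept all mice, 2 lost the first call and 3 the second (adjusted p 0.0565 to 0.0799). With a pseudocount of 0.1 the differences were -0.79 (adjusted p = 0.034) and 0.77 (adjusted p = 0.0344). Cr1l, the rodent regulator Crry, was at 47.0 to 58.0 RPKM over all mice, and no comparison passed.

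C6, a component of the membrane attack complex, was at 7.57, 6.77 and 6.85 RPKM in Con-sa, 5.46, 6.73 and 6.30 RPKM in B-sa, 3.30, 4.64 and 5.03 RPKM in B+Con-FMT and 7.19, 6.54 and 7.55 RPKM in B+A10-FMT. The B+Con-FMT mice were below all others. C6 fell by 0.61 in B+Con-FMT against Con-sa (SE 0.12, adjusted p = 0.00935) and rose by 0.62 in B+A10-FMT against B+Con-FMT (SE 0.12, adjusted p = 0.00897), and both calls held without any single mouse. Pancreatic acinar markers, of which 0 of 6 were called in any comparison, summed to 2724 to 4239 RPKM in B+Con-FMT, 436 to 2334 RPKM in Con-sa, 164 to 1117 RPKM in B-sa and 156 to 3136 RPKM in B+A10-FMT, with a median log2 difference of 1.83 in B+Con-FMT against Con-sa. In B+A10-FMT mouse 3, which had the sum of 3136 RPKM, C6 was at 7.55, Cd46 at 2.2, C1ra at 30.95 and C4b at 45.2 RPKM, each above the B+Con-FMT mice and all but C1ra the highest of its group. The part of this tissue in the lower C6, Cd46, C1ra and C4b of B+Con-FMT was not tested. The other terminal components were near the lower limit, C7 at 0.28 to 1.66 RPKM, and 1 of the 7 terminal genes averaged at least 1 RPKM.

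The classical proteases that C1q carries were measured with the chains. C1ra fell by 0.24 in B+Con-FMT against Con-sa (SE 0.056, adjusted p = 0.025), from 30.7, 30.1 and 33.4 RPKM to 25.8, 26.6 and 26.9 RPKM without overlap. The call was lost without Con-sa mouse 1 or 3 or B+Con-FMT mouse 1 or 2 (adjusted p 0.061 to 0.0787). C1s1, its partner, was at 25.3 to 33.8 RPKM, and its difference in that comparison was -0.16 (adjusted p = 0.184).

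Of the receptors that clear complement-coated material, Itgax, the CD11c chain of complement receptor 4, was at 16.6, 16.8 and 15.9 RPKM in B+Con-FMT and 20.9, 20.3 and 21.9 RPKM in B+A10-FMT. It rose by 0.34 between them (adjusted p = 0.0158), a call that was lost without B+Con-FMT mouse 1 or B+A10-FMT mouse 2 (adjusted p = 0.0548 and 0.0523). Against Con-sa it fell by 0.25 in B+Con-FMT (adjusted p = 0.0496), a call lost in 9 of the 12 fits that left out a mouse. That call was also lost in 5 of the 8 alternative fits that kept all mice (adjusted p 0.05 to 0.1). The 6 dendritic cell markers, of which Itgax is one, summed to 60.3 to 63.1 RPKM in Con-sa, 47.3 to 56.9 RPKM in B-sa, 44.1 to 46.2 RPKM in B+Con-FMT and 55.5 to 65.5 RPKM in B+A10-FMT. These sums include Itgax itself. Among the 6, Siglech, a marker of plasmacytoid dendritic cells, changed most. It rose by 0.90 between the transfer groups (adjusted p = 0.000545) and fell by 1.31 in B+Con-FMT against Con-sa (adjusted p = 7.92e-05). Zbtb46, Flt3, Xcr1 and Clec9a passed in neither comparison, so that 2 of the 6 were called in each. The part of dendritic cells in the Itgax values was not tested. Lrp1, an endocytic receptor for calreticulin-bound C1q and protease complexes, rose by 0.48 in B+A10-FMT against B+Con-FMT (adjusted p = 0.0246), from 6.71, 8.26 and 9.38 RPKM to 12.1, 11.8 and 11.1 RPKM. This was lost without B+Con-FMT mouse 1 or 2 or B+A10-FMT mouse 1 or 2 (adjusted p 0.059 to 0.099). Itgb2, the shared beta chain, at 87.5 to 105 RPKM, and Cr2, the C3d receptor of B cells, at 72.4 to 102 RPKM, passed in no comparison.

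**Figure D5:**
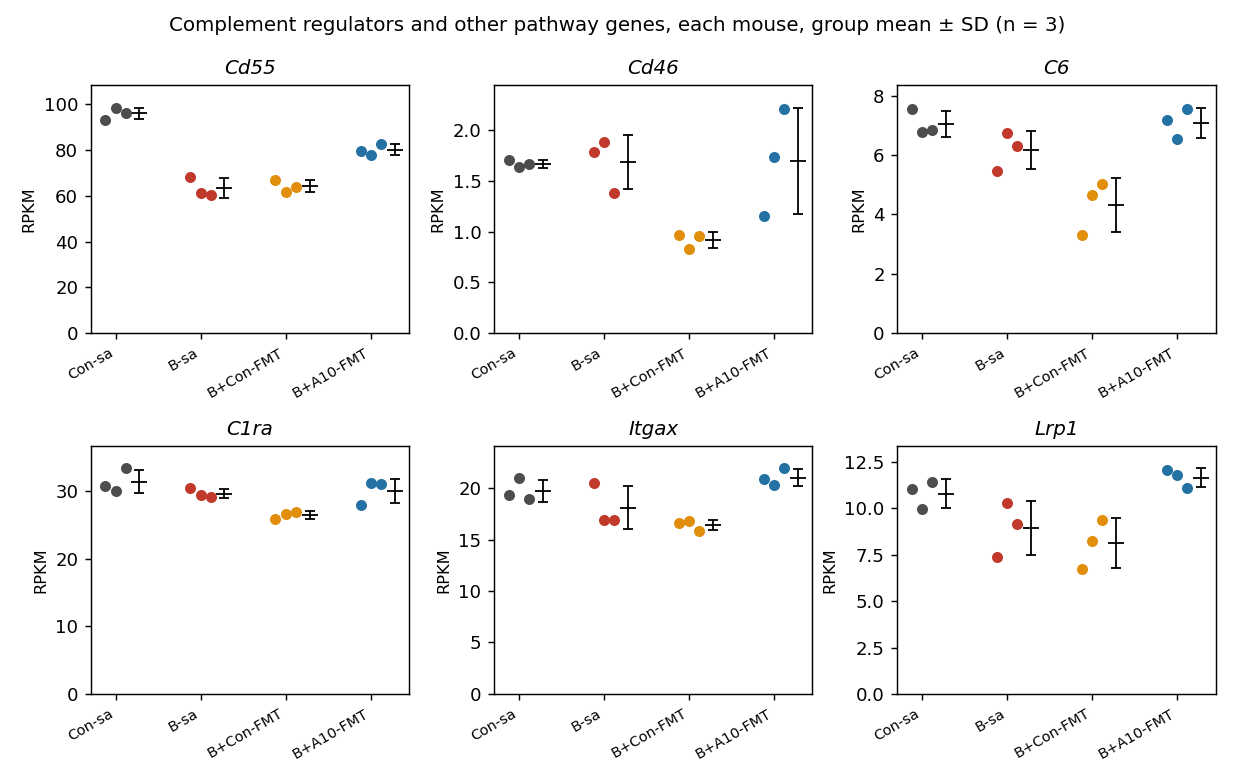
Level in RPKM (vertical axes, from 0) of Cd55, Cd46, C6, C1ra, Itgax and Lrp1, the listed complement genes called in at least 1 comparison. Points are mice and bars the group mean ± SD (n = 3). Cd55 is highest in Con-sa, at 93.1 to 98.3 RPKM, and C6 and Cd46 are lowest in B+Con-FMT.

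The remaining named genes passed in no comparison. Serping1, the C1 inhibitor, was at 112 to 154 RPKM and Clu, clusterin, at 337 to 504 RPKM, the highest of all complement genes listed. Fcna, ficolin A, a lectin pathway molecule of macrophages, was at 64.5 to 123 RPKM, with a difference of 0.42 in B+A10-FMT against B+Con-FMT (adjusted p = 0.109), and the scavenger collectin Colec12 at 17.1 to 20.1 RPKM. Cfd, the factor D protease made by fat cells, ran from 13.2 to 110.0 RPKM, with r = 0.932 to Adipoq and r = 0.968 to Car3 over the 12 mice. Cfd is itself on the adipocyte list, whose other 5 genes summed to 25.4 to 251.5 RPKM, and the part of fat tissue in the Cfd values was not tested.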

How the data were processed

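Spleen RNA of 12 mice was sequenced, and 1 table per mouse was used. The deposited values are RPKM per RefSeq transcript, which the authors derived from reads mapped to reference genes with SOAPaligner. The submitters' processing notes name HISAT, Bowtie2 and mm10 without their roles. The paper gives an Illumina HiSeq and the labels BGISEQ protocols. RPKM of the transcripts of an Entrez gene were summed over 60654 transcripts to 18221 genes.

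The 12671 genes that reached 1 RPKM in 3 or more mice entered the test, on log2(RPKM + 1) with limma 3.58.1 (R 4.3.3; trend and robust), with 12 mice in 1 fit. The pseudocount understates changes of low genes. P-values were two-sided, adjusted by the Benjamini-Hochberg method over all genes tested and called under 0.05. Exact permutation tests of 3 mice against 3 cannot go below 0.1. The test was checked on data simulated for B-sa against Con-sa with 200 genes changed. It recovered 78% of them at a log2 change of 0.5 and 98.5% at 1, with 12 and 15 false calls. Smaller changes, such as those estimated for the members in the main fit, were not simulated. Figures were drawn with matplotlib 3.10.9 in Python 3.11.15.

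The members and lists were chosen with earlier results of these data known. Named were all 9 members, listed complement genes called at least once (up to 8) and the 2 most abundant of each role, and the genes most like each member. A gene that this rule names is not reported here. Cell type markers and complement genes outside this rule were named after their values were seen. Promoters come from RefSeq (GRCm38.p6). As alternatives, the fit was repeated without a filter, with 1 RPKM required in every mouse, with 0.1 as pseudocount, with a replicate block, with only the 2 groups compared, with scaling by median-of-ratios, with totals outside the globins made equal, with NM transcripts only and with each mouse left out in turn. Groups came from the agent labels. No mouse was left out.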

Additional observations from a re-analysis of the deposited data

How the results depend on the processing

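Under the alternatives that kept all mice, 446 values of the named complement genes kept direction and side of the threshold, 14 no longer passed, 2 newly passed and 8 turned sign. In B+Con-FMT against Con-sa the count of members called was 0 without a filter, 0 with the replicate block and 0 with median-of-ratios scaling, where C4b had an adjusted p of 0.066, 0.0674 and 0.0675. With NM transcripts alone it stayed at 1, but the member was C3 and C4b had 0.0826. The count was 1 between B+A10-FMT and B+Con-FMT with equal totals outside the globin genes, where C4b was higher by 0.24 (adjusted p = 0.0355). The cause was not tested. With each mouse left out the count was 0 to 1 in B+Con-FMT against Con-sa, B+A10-FMT against B+Con-FMT and B+A10-FMT against B-sa, and 0 to 0 in the other 3 comparisons.

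Replicate numbers do not pair the mice, since deviations of same-numbered mice had r of -0.373 to 0.303 (mean -0.038) and of other mice -0.432 to 0.512. The replicate block also ended the calls of Cd46 between the transfer groups and in B+Con-FMT against Con-sa (adjusted p = 0.0615 and 0.0664) and of Itgax in B+Con-FMT against Con-sa (0.0728). Both Cd46 calls were also lost without a filter (0.0565 and 0.0566), and the first with only the 2 groups (0.0799). The Itgax call was also lost with a pseudocount of 0.1 (0.05), without a filter (0.0697), with median-of-ratios scaling (0.0906) and with NM transcripts alone (0.1). Besides that of C4b, no other call of the named complement genes changed with the block.

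Under median-of-ratios scaling C1qa was 0.017 and Cfp 0.014 in B-sa against Con-sa, Cfb was -0.003 in B+A10-FMT against B-sa, and C1qb was 0.005 and Cfb 0.027 in B+Con-FMT against Con-sa. C3 in B+A10-FMT against B+Con-FMT was 0.023 with equal totals and 0.20 with NM transcripts alone, which also gave -0.12 in B-sa against Con-sa. Leaving out 1 mouse also turned the sign of some estimates, none of which passed the test. The range for B+Con-FMT against B-sa was C1qa -0.15 to 0.094, C1qb -0.15 to 0.11 and C1qc -0.13 to 0.11. The range for B+Con-FMT against Con-sa was C1qa -0.19 to 0.062, C1qb -0.14 to 0.12, C1qc -0.21 to 0.038, C5ar1 -0.039 to 0.18 and Cfb -0.091 to 0.075. The range for B-sa against Con-sa was C1qa -0.13 to 0.074, C1qb -0.090 to 0.068 and C1qc -0.19 to 0.015. The range for B+A10-FMT against B+Con-FMT was C1qc -0.014 to 0.26 and C3 -0.085 to 0.002. The range for B+A10-FMT against Con-sa was C1qc -0.046 to 0.15. The range for B+A10-FMT against B-sa was C4b -0.089 to 0.051, C5ar1 -0.036 to 0.24 and Cfb -0.033 to 0.15.

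The share of all genes called moved more. In B-sa against Con-sa 1838 genes were called, against 972 with only the 2 groups and 741 with NM transcripts. In B+Con-FMT against B-sa the numbers were 107, 32 and 25, with 71 without a filter and 180 with equal totals. For B+A10-FMT against B-sa they were 668, 158 and 203, with 417 under the block. Between B+A10-FMT and B+Con-FMT 1312 became 546 with NM transcripts and 2339 with equal totals, and in B+Con-FMT against Con-sa 1124 became 382 and 1836. For B+A10-FMT against Con-sa 52 became 1 with NM transcripts and 29 with the filter in every mouse. Single mice moved these numbers by over 1.5 times. B-sa against Con-sa gave 827, 786 and 939 without Con-sa mouse 1, 2 and 3 and 513 without B-sa mouse 2. B+Con-FMT against B-sa gave 466, 19 and 56 without B-sa mouse 1, 2 and 3, 24 and 35 without B+Con-FMT mouse 1 and 2 and 67 without Con-sa mouse 1. B+A10-FMT against B-sa gave 272, 106 and 345 without B+A10-FMT mouse 1, 2 and 3, 141 without B-sa mouse 2 and 406 without Con-sa mouse 1. Between the transfer groups the number was 305 and 490 without B+Con-FMT mouse 1 and 2, and 218 and 779 without B+A10-FMT mouse 2 and 3. B+A10-FMT against Con-sa gave 13, 27 and 12 without Con-sa mouse 1, 2 and 3, and 1 and 12 without B+A10-FMT mouse 1 and 2. B+Con-FMT against Con-sa gave 329, 367 and 659 without Con-sa mouse 1, 2 and 3, and 393, 533 and 601 without B+Con-FMT mouse 1, 2 and 3.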

Other observations

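Some complement genes of the liver were present at a low level that followed the hepatocyte transcript Alb, albumin. C9, C8a, Hc (C5) and C4bp had r = 0.883, 0.962, 0.878 and 0.871 with Alb over the 12 mice, as a description without a test. They were picked after the values were seen. Cpn1, also listed, was instead highest in B+Con-FMT mouse 2, at 0.80 RPKM, where Alb was at 6.57 RPKM. The hepatocyte marker Serpina1a was at 4.81 RPKM in B+A10-FMT mouse 2, where Alb was lowest at 1.15 RPKM. The 6 hepatocyte markers summed to 19.1 to 190 RPKM in Con-sa, 10.97 to 61.2 RPKM in B-sa, 13.3 to 46.3 RPKM in B+Con-FMT and 7.21 to 13.2 RPKM in B+A10-FMT. Con-sa mouse 3 was highest for Alb at 122 RPKM and for C9 at 1.73 RPKM. C3 was at 228 to 276 RPKM over the mice, and the part of liver tissue in its values was not tested.

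The genes whose pattern over the 12 mice was most like the mean of the C1q chains were Rasgrp4 (r = 0.933), Ech1 (0.923), Lrrc25 (0.874), Ninj1 (0.87), Csf3r (0.866), Lrg1 (0.859), Pdlim4 (0.858), Ctsd (0.846), Calm3 (0.837) and Mcpt8 (0.825). None of the listed macrophage markers was among them, and the summed neutrophil list had r = 0.49 with that mean. For C5ar1 the nearest genes were Fpr2 (0.958), Fpr1 (0.945) and Mmp8 (0.931), which are formyl peptide receptors and a collagenase of neutrophils. For Cfp they were Itgb2 (0.951), Slc7a7 (0.923) and Hexa (0.916), and for Cfb Tgtp1 (0.932), Cd44 (0.92) and Mrpl16 (0.915). C4b was nearest to Sin3b (0.929), Pnpla2 (0.919) and Dhdh (0.9), C3 to Echdc3 (0.857), Ctsl (0.854) and Arl6ip4 (0.843), and C3ar1 to Fam180a (0.842), Col6a3 (0.814) and Dctn2 (0.804). These are the highest of all genes tested for each pattern and were picked for that.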
